A study of Cercocebus atys with 16 samples.

Results

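The arrays described here hold stimulated double-negative T cells from 4 sooty mangabeys (Cercocebus atys), 2 with a CD4 status labelled normal and 2 labelled low. Of the 16 arrays of the series, they are the 4 on which both colours carried stimulated RNA of the same animal, chosen by title. The normal animals were FNV and FKN, the low animals FBR and FTV, and every animal carried SIV, the simian immunodeficiency virus. The cells, CD3+CD4-CD8-, were taken from blood mononuclear cells with magnetic beads by removing CD4, CD8 and CD16 cells and then keeping CD3 cells, at a labelled purity above 98%. They rested overnight and then received anti-CD3 and anti-CD28 antibodies, labelled as 3 and 1 mg/ml, for 4 hours. The comparison addresses how these cells, once activated, differ between infected animals with normal and with low CD4. Each animal gave 1 stimulated sample, so n = 2 animals per group throughout. Probes were made to the rhesus macaque genome, and a mismatch between the species can weaken a probe's signal.

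Double-negative T cells carry the T cell receptor but neither of the coreceptors that sort most T cells into helpers and killers. Antibodies to CD3 and CD28 mimic the engagement of the receptor and of its main costimulatory partner, after which T cells transcribe cytokine genes within hours. Sooty mangabeys are a natural host of SIV that usually stays healthy, and some animals do so with few CD4 T cells.

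The array of FNV stood apart and was scanned in an earlier batch that held no other animal, so for FNV animal, slide and batch cannot be told apart. On it 33.3% of spots in Cy3 and 37.6% in Cy5 were well above background, against 57.0% to 62.0% on the other 3. Across the 20590 features tested, FNV correlated with the other animals at r = 0.918 to 0.927, and the others with each other at 0.981 to 0.989. The same FNV extract on the stimulated against unstimulated arrays had 54.3% and 58.0% of spots well above background, and still correlated with the others at only 0.938 to 0.944. Results that rest on FNV are therefore given with and without it, and the stimulated channels of those arrays serve as a technical repeat. Levels are log2 intensities averaged over both colours, always in the order FNV and FKN for the normal animals and FBR and FTV for the low animals, or shortly as normal against low. A difference is low minus normal, with limma's standard error (SE). A level compares animals for 1 probe and says nothing about which of several genes is more abundant.

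No feature differed between low and normal animals at an adjusted p under 0.05 with limma (0 of 20590, 0%), and the smallest adjusted p was 0.647. Without FKN, 4904 features passed, with FNV then the lone normal animal and its spread taken from the low pair, and without any other animal 0 passed. At an unadjusted p under 0.05, limma called 374 features, or 1.82%. With 2 animals against 2, an exact permutation test cannot go below p = 0.333. The groups are therefore described by separation: a gene is separated where both low animals lie on the same side of both normal ones. Of all features, 3760 (18.3%) were separated with the low animals higher and 3500 (17%) with them lower. When each array was centred on its 75th percentile, those counts were 2913 and 4160, and when it was centred on its median they were 499 and 395, with 2 and 26 at least 2-fold. Under 75th percentile centring the median difference over all features went from 0.03 to -0.11. At least 2-fold separations numbered 348 (1.69%) and 515 (2.5%), and among named genes alone 122 (1.47%) and 138 (1.66%). With scan batch as a term, which leaves FNV out of the size of the difference, 135 of the 3760 and 66 of the 3500 were at least 2-fold. Of the 348 and 515, 863 in all, 491 were separated the same way on the stimulated against unstimulated arrays. The typical difference was about the size of its error, with a median absolute difference of 0.29 and a median SE of 0.31.

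The brightest named probes at 4 hours belonged to protein synthesis and to MHC class I, and they hardly separated the groups. Of the 20 brightest, 11 were for ribosomal proteins, such as RPLP2, RPL3 and RPS12, and 5 for MHC class I heavy chains, which present peptides to CD8 T cells and can share sequence. The other 4 were HSP90AB1, a chaperone, TPT1, a growth-related protein, EEF1A1, the elongation factor that brings tRNA to the ribosome, and UBE2B, a ubiquitin-conjugating enzyme. Levels lay between 16.15 and 17.70 in every animal. The ribosomal protein probes varied over the 4 animals by 0.13 to 0.71, with differences between groups of -0.22 to 0.20. Only 4 of the 20 were separated, RPLP1, TPT1, MAMU-AG and UBE2B, and none of them by more than 0.60.

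The 5 bright MHC class I probes were all lowest in FNV. Their mean level was 16.54 in FNV, 17.50 in FKN, 17.40 in FBR and 17.60 in FTV, so the other normal animal lay among the low ones. MAMU-AG, a class I gene of macaques, had 16.46 and 17.40 in the normal animals and 17.44 and 17.62 in the low animals, and its difference was 0.60 (SE 0.39), or 0.13 without FNV. Both MAMU-F and MAMU-E, other class I genes, had the same pattern further apart. MAMU-F measured 12.95 and 16.20 against 16.01 and 16.48. MAMU-E, whose human counterpart signals to NK cells, measured 14.07 and 16.05 against 15.90 and 16.37. In both, FNV was low and the groups overlapped.

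**Figure D1:**
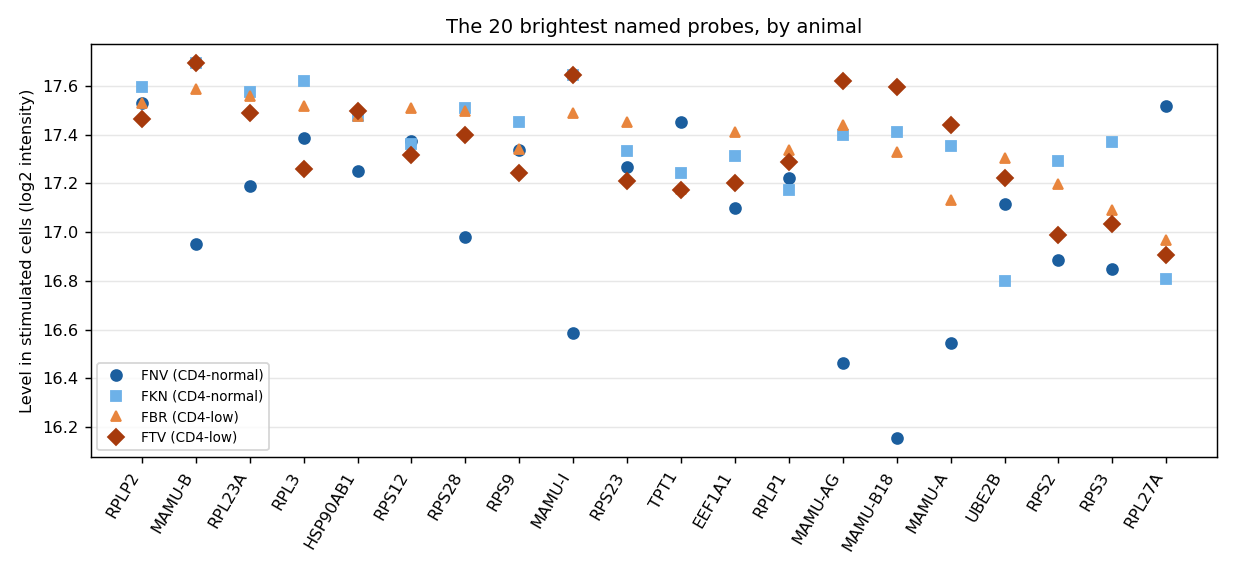
Levels (log2 intensity) of the 20 brightest named probes in stimulated cells, one point per animal; heights of different probes are not comparable. The points of the ribosomal protein probes lie within 0.71 of each other, while in the 5 MHC class I probes FNV lies below the other 3 animals.

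Among the genes with the widest gap between the groups, those higher in the low animals were led by CXCL3, CXCL8 and CSF3. The gap is the distance between the nearest animals of the 2 groups, and the 15 named genes with the widest gap in each direction, separated in each colour alone, are described. The 15 that were higher had differences of 0.93 to 2.48 and gaps of 0.72 to 1.49, with an adjusted p of 0.842 for each (limma). Without FKN the smallest adjusted p of the named genes was 0.0101, and in the other alternatives it was 0.21 to 1. Of all 30 genes in both directions, 10 stayed separated under median centring. All 15 were separated the same way on the stimulated against unstimulated arrays, and 13 in resting cells. Of all 7260 features separated in either direction, 3813 were separated the same way at rest, and of the 863 at least 2-fold, 514. The resting cells came from the same animals, so they are not an independent check. Without FNV, 12 of the 15 genes were still at least 2-fold. The probe was not well above background in FNV for 6 of them (CSF3, IL1B, RC3H1, ITFG2, HEXDC and ZNF225), so their level there is less certain.

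The chemokines CXCL3, CXCL8 and CXCL1, which attract neutrophils through the receptor CXCR2, were higher in both low animals. CXCL3 had 9.60 and 9.76 in the normal animals and 11.52 and 11.24 in the low animals, a difference of 1.70 (SE 0.27), or 3.25-fold, and the widest gap of the 15. CXCL8, or interleukin-8, had 10.69 and 10.57 against 12.15 and 12.01, a difference of 1.45 (SE 0.25). CXCL1 had 8.44 and 7.82 against 9.43 and 9.26, a difference of 1.21 (SE 0.32). In each the animals of a group lay close together and the groups did not overlap, and without FNV the differences were 1.62, 1.51 and 1.52. Other tested probes of CXCL8 and CXCL1 were also separated, with narrower gaps of 0.32 and 0.70 for CXCL8 and 0.05 and 0.05 for CXCL1. The 3 genes are neighbours: their probes lie on chromosome 5 of rheMac2 within 325.3 kb, from 55617571 for CXCL3 to 55942915 for CXCL8, with CXCL1 between them.

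The chemokine difference was already present before stimulation. In resting cells CXCL8 had 10.43 and 10.67 in the normal animals and 11.72 and 12.38 in the low animals, a difference of 1.504, against 1.45 at 4 hours. CXCL3 had 10.06 and 10.81 against 11.58 and 11.18 at rest, a difference of 0.94. In the normal animals CXCL3 was -0.46 and -1.05 after stimulation relative to rest, and in the low animals -0.05 and 0.07. The change in the difference was 0.76 (SE 0.26, limma adjusted p = 0.93). The summed intensity of 12 neutrophil markers was 13810 in FNV, 1442 in FKN, 3569 in FBR and 4991 in FTV, so it was high in FNV and lowest in FKN. MMP9 made up 12320 of the sum in FNV. Of the defining markers, CXCR1 and MMP8 were not well above background in any animal, and LTF was so in FTV only. The part of neutrophils in the chemokine levels was not tested.

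Some cytokine genes, such as IL2, and IL13 and TNFSF14 below, were separated at 4 hours while their groups overlapped at rest. IL2, the growth factor that activated T cells make for themselves and their neighbours, had 10.96 and 10.54 in the normal animals and 13.46 and 11.81 in the low animals, with non-overlapping groups and FBR far above the rest. Its difference was 1.88 (SE 0.60), or 3.69-fold, and 2.10 without FNV but 1.06 without FBR. In resting cells IL2 had 7.62 and 7.94 against 7.67 and 7.20, where the groups overlapped. Over all features, resting levels differed at an unadjusted p under 0.05 for 1.81% (limma), and 0% at an adjusted one. Stimulated minus resting IL2 was 3.34 and 2.60 against 5.79 and 4.61, a difference in response of 2.23 (SE 0.48). That difference had an unadjusted p of 0.00593, which 1.79% of features had below 0.05, and an adjusted p of 0.93 (limma).

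CSF3, which drives neutrophil production, and IL1B, an inflammatory cytokine of the innate arm, were also higher in both low animals. CSF3 had 8.26 and 7.96 in the normal animals and 9.55 and 9.55 in the low animals, a difference of 1.44 (SE 0.26). IL1B had 7.14 and 8.39 against 9.82 and 9.41, a difference of 1.85 (SE 0.49), or 1.23 without FNV. Both had FNV and FKN below either low animal, and both were separated at rest, by differences of 0.74 and 1.46. IL18RAP, a subunit of the receptor for interleukin-18, had 9.94 and 9.998 against 10.81 and 12.62, with FTV well above FBR. IL1B is a typical monocyte product and stands in the monocyte list, of whose 30 tested members 3 (10%) were separated higher in the low animals and 7 (23.3%) lower, beside 18.3% and 17% of all features.

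The other genes of this group act in different processes. UBD, a ubiquitin-like protein induced by inflammatory cytokines, had 8.61 and 8.85 in the normal animals and 9.83 and 9.91 in the low animals. GABBR1, a subunit of the GABA-B receptor, had 10.38 and 10.17 against 11.43 and 11.78. Their probes lie 46.5 kb apart on chromosome 4 (rheMac2), at 29289741 to 29289800 for UBD and 29336279 to 29336338 for GABBR1. RC3H1, which encodes Roquin-1, a protein that marks mRNAs of T cell genes for decay, had 7.48 and 9.48 against 10.46 and 11.46. MALAT1, a nuclear long noncoding RNA, had 14.04 and 14.28 against 15.15 and 16.02 at 4 hours but overlapping groups at rest. In RC3H1 FNV lay far below FKN, and its difference of 2.48 (SE 0.75) was 1.48 without FNV. The remaining 4 were ITFG2, HEXDC, ZNF225 and ENO2, a glycolytic enolase, with differences of 1.74, 0.93, 1.06 and 0.93. Without FNV that of ITFG2 was 1.14. The other tested ZNF225 probe went the opposite way, with a difference of -0.32, and was not separated.

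**Figure D2:**
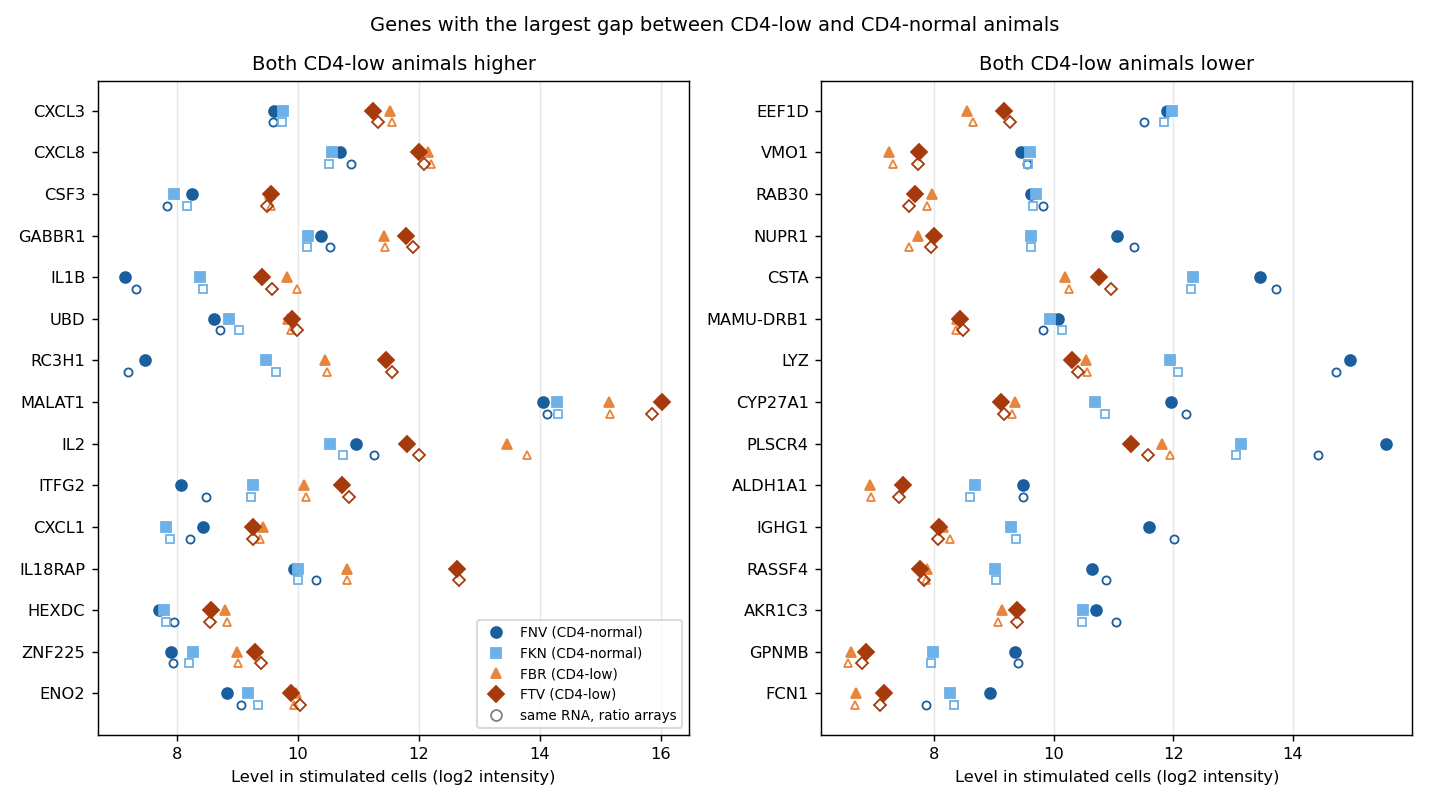
Levels (log2 intensity) in stimulated cells of the 15 named genes with the widest gap in each direction, by animal and with a row per gene. Filled points are the self-self arrays, and open points the same RNA on the stimulated against unstimulated arrays. In every row the filled points of both low animals lie on the same side of both normal animals, as the choice of genes requires. In many rows of the right panel FNV lies furthest out.

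The 15 genes lower in the low animals included LYZ, FCN1 and an immunoglobulin probe, and their differences spanned larger values. They ranged from 1.34 to 3.08 in size with gaps of 1.11 to 2.72, each with an adjusted p of 0.842 (limma). All 15 were separated the same way in resting cells and on the stimulated against unstimulated arrays. Of the 863 features separated at least 2-fold in either direction, 514 and 491 were. Both come from the same animals, so neither is an independent check. All 15 genes were at least 2-fold without FNV, although FNV was the highest animal in 12.

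EEF1D, a subunit of the factor that recharges EEF1A1, had the widest gap of the named genes. Its level was 11.89 and 11.98 in the normal animals and 8.55 and 9.18 in the low animals, a difference of -3.08 (SE 0.32), or 8.43-fold,, and the groups lay far apart. At rest it was 12.18 and 12.02 against 8.39 and 9.32, and without FNV the difference was -3.12. EEF1D had 1 tested probe, placed on chromosome 8 of rheMac2. Of the 33 translation factors tested, EEF1D among them, 3 (9.09%) were separated higher and 10 (30.3%) lower, beside 18.3% and 17% of all features. Their median difference was 0.07, or -0.12 without FNV, beside 0.03 and -0.004 over all features. VMO1, a secreted protein, was lower on each of its 3 tested probes, and the brightest had 9.45 and 9.60 against 7.25 and 7.75. RAB30, a small GTPase of the Golgi, had 9.63 and 9.71 against 7.97 and 7.69.

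LYZ, or lysozyme, a bacteria-degrading enzyme of monocytes and neutrophils, had 14.95 and 11.94 in the normal animals and 10.54 and 10.30 in the low animals, a difference of -3.02 (SE 0.99), or 8.13-fold. FNV was far above FKN, and without FNV the difference was -1.52. Another LYZ probe had a difference of -2.89. CSTA, or cystatin A, a protease inhibitor, had 13.45 and 12.33 against 10.18 and 10.76. FCN1, a lectin secreted by monocytes, had 8.94 and 8.28 against 6.70 and 7.17. GPNMB, a glycoprotein of macrophages, had 9.36 and 7.98 against 6.61 and 6.87, and CYP27A1, a sterol hydroxylase, 11.97 and 10.701 against 9.36 and 9.12. In all 5 genes FNV was highest, FKN next and both low animals lowest. Other monocyte markers (CD14, CD163, CSF1R, VCAN, S100A8 and S100A9) were also highest in FNV, but their groups overlapped. CD14 had 10.23 and 9.31 against 10.20 and 9.86, and S100A9 11.80 and 9.46 against 9.40 and 11.39.

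Genes of B cells and antigen presentation were among the rest. A probe named IGHG1 in the older annotation, and described as a mu heavy-chain constant region, had 11.59 and 9.29 in the normal animals and 8.15 and 8.09 in the low animals. Its other 4 tested probes had smaller differences, of -0.18 to -1.08, and 1 of them was not separated. MAMU-DRB1, an MHC class II chain that presents peptides to CD4 T cells, had 10.07 and 9.95 against 8.39 and 8.43, close within each group. That probe was made to a single rhesus allele, so a different allele in an animal can lower its signal, which was not tested. PLSCR4, a phospholipid scramblase, had 15.55 and 13.13 against 11.81 and 11.30, and NUPR1, a stress-induced nuclear protein, 11.07 and 9.63 against 7.73 and 8.01. ALDH1A1 and AKR1C3, enzymes of aldehyde and ketone metabolism, and RASSF4, a Ras-binding protein, had differences of -1.88, -1.34 and -1.995. Without FNV, RASSF4 was -1.18, PLSCR4 -1.57 and the IGHG1 probe -1.17, against -2.78 and -2.32 for the last pair with it. The other tested RASSF4 probe had a difference of -0.11 and was not separated.

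The B cell marker list was lower in both low animals, as these genes were, while the monocyte list was high in FNV alone. In a bulk sample, fewer cells of a type and less RNA per cell cannot be told apart. The summed intensity of 33 monocyte and macrophage markers was 70880 in FNV, 31380 in FKN, 32200 in FBR and 30520 in FTV. That of 25 B cell markers was 19000 in FNV, 5602 in FKN, 4835 in FBR and 3978 in FTV. The B cell sum was lower in both low animals than in FKN as well, while the monocyte sums of FKN, FBR and FTV were close. Of the defining B cell markers, CD79B had 9.91 and 8.44 in the normal animals and 8.29 and 8.16 in the low animals, and with MS4A1 and CR2 it was well above background in every animal, while CD79A was so in FKN and FTV only. The part of these cells in the lower levels of LYZ, FCN1 or IGHG1 was not tested.

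Within the B cell list, 11 of 17 tested genes (64.7%) were separated with the low animals lower and none with them higher, beside 17% and 18.3% of all features. The median difference was -0.89, and -0.30 without FNV, beside 0.03 over all features. JCHAIN, which links antibody subunits, had 10.83 and 7.40 in the normal animals and 6.89 and 6.98 in the low animals. BANK1, a B cell receptor adaptor, had 11.06 and 8.31 against 7.89 and 7.67, and MS4A1, which encodes CD20, 9.37 and 7.51 against 7.25 and 7.10. In these genes FNV was high and FKN lay only slightly above the low animals. On the other tested BANK1 probe the difference was 0.08, without separation. Of 30 monocyte genes, 7 (23.3%) were separated lower and 3 (10%) higher, beside 17% and 18.3%. Their median difference changed sign, from -0.23 to 0.21, without FNV, and also without FBR. MHC class II genes, shared by B cells and myeloid cells, had 3 of 13 lower (23.1%) and 1 higher (7.69%), with a median of -0.42, or -0.11 without FNV.

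**Figure D3:**
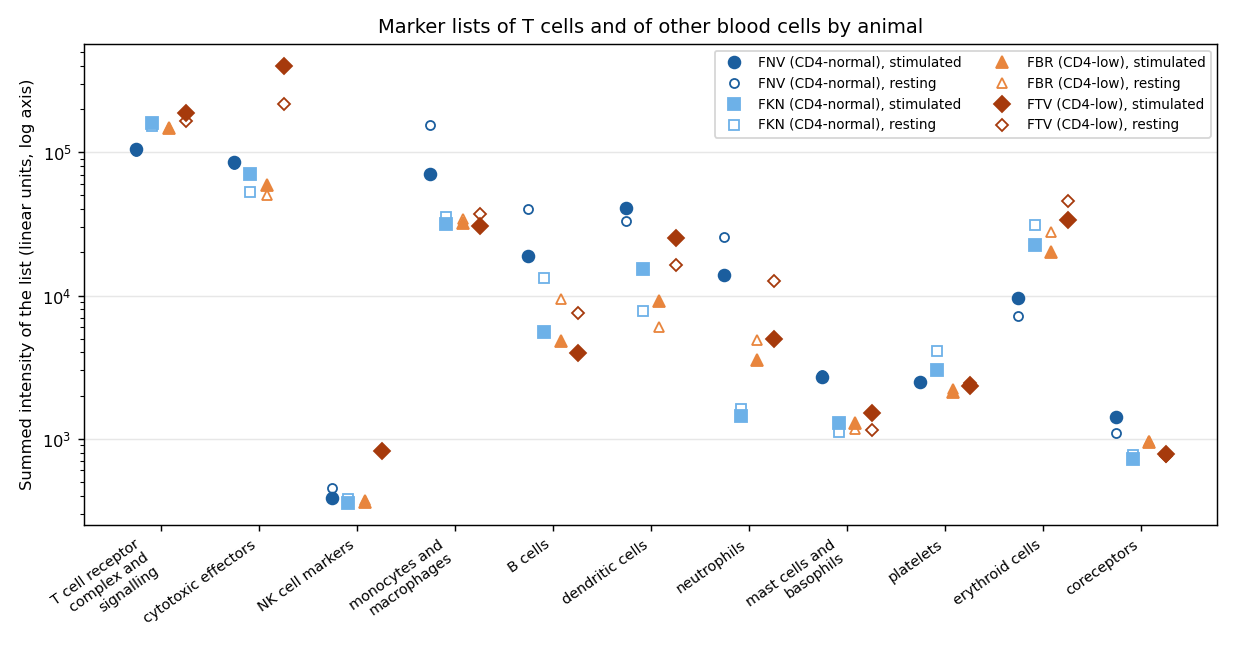
Summed linear intensity (log axis) of marker lists of T cells and of other blood cells, by animal. Filled points are stimulated cells and open points resting cells. In stimulated cells FNV is highest for monocyte, B cell, dendritic cell and neutrophil lists, and FTV is highest for the cytotoxic list.

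The cells carried transcripts of the T cell receptor complex. The coreceptors CD4 and CD8B, whose cells the sort removes, were also well above background in every animal, and the source of that signal was not tested. CD3D, a chain of the T cell receptor complex, had 14.86 and 15.54 in the normal animals and 15.45 and 15.81 in the low animals. The coreceptor CD4 had 10.20 and 9.09 against 9.51 and 9.22. CD8B had 7.97 in FNV, 7.73 in FBR and 7.55 in FTV, with FKN lower by a little, so that both coreceptors were highest in FNV, and neither was separated. Of the T cell receptor list, 6 of 24 genes (25%) were separated higher in the low animals and 1 (4.17%) lower, beside 18.3% and 17% of all features. Its median of 0.51 was 0.11 without FNV. Members deviated from the mean of the 4 animals by a median of -0.55 in FNV and of 0.04 to 0.29 in the others.

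Cytokine genes as a list had a positive median difference at 4 hours. Of 35 tested, 8 (22.9%) were separated higher and 2 (5.71%) lower, beside 18.3% and 17% of all features. The median difference was 0.46, and 0.24 without FNV, against 0.01 in resting cells. IL13, a type 2 cytokine, had 8.12 and 10.07 in the normal animals and 11.66 and 10.43 in the low animals, with FNV below the other 3. TNFSF14, or LIGHT, a ligand of the TNF family, had 7.92 and 9.77 against 10.18 and 11.19. At rest the groups overlapped in both genes. Stimulated minus resting IL13 was 1.66 and 3.12 against 4.68 and 3.88, a difference in response of 1.89 (SE 0.56). For TNFSF14 it was 0.40 and 0.64 against 1.17 and 1.47, a difference of 0.80 (SE 0.21). Each of these differences in response had an adjusted p of 0.93 (limma). LTA, or lymphotoxin alpha, measured 7.82 and 12.15 against 12.06 and 11.79, with FKN just above both low animals and FNV far below. IL6, with 10.09 and 8.15 against 7.85 and 8.03, was the largest difference in the other direction, and its difference was -0.21 without FNV.

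Among signature cytokines of helper T cell subsets, IFNG was separated, as was IL13 above, while IL4, IL17F, IL22 and TNF overlapped. They are named here for their role, after their values were seen. Over all features, 18.3% were separated with the low animals higher and 17% with them lower. IFNG, the type 1 cytokine, had 13.40 and 13.30 in the normal animals and 13.52 and 14.76 in the low animals. Its separation was narrow, with FBR just above the normal animals and FTV well above them. IL4, a type 2 cytokine, had 13.50 and 13.82 against 14.65 and 13.50, with only FBR apart. IL17F, of the type 17 subset, had 10.62 and 14.33 against 14.44 and 12.09, and IL22 14.66 and 14.10 against 15.67 and 13.20. In IL17F, IL22 and IL4 the highest level was in FBR, while the other low animal lay within or below the range of the normal ones. TNF had 14.52 and 15.23 against 14.998 and 15.88, and again the groups overlapped. With 2 animals a group, these values do not show that the groups were alike.

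The chemokine list held values in both directions, with 5 of 21 separated higher (23.8%) and 2 lower (9.52%), beside 18.3% and 17% of all features. CCL17, a ligand of CCR4, had 9.19 and 8.27 in the normal animals and 7.39 and 7.02 in the low animals, and CCL18, a product of myeloid cells, 8.87 and 9.12 against 6.56 and 7.96. Both were lower in each low animal, and their differences without FNV were -1.07 and -1.86. The list's median of 0.10 was 0.39 without FNV and changed sign without FTV and under median centring.

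**Figure D4:**
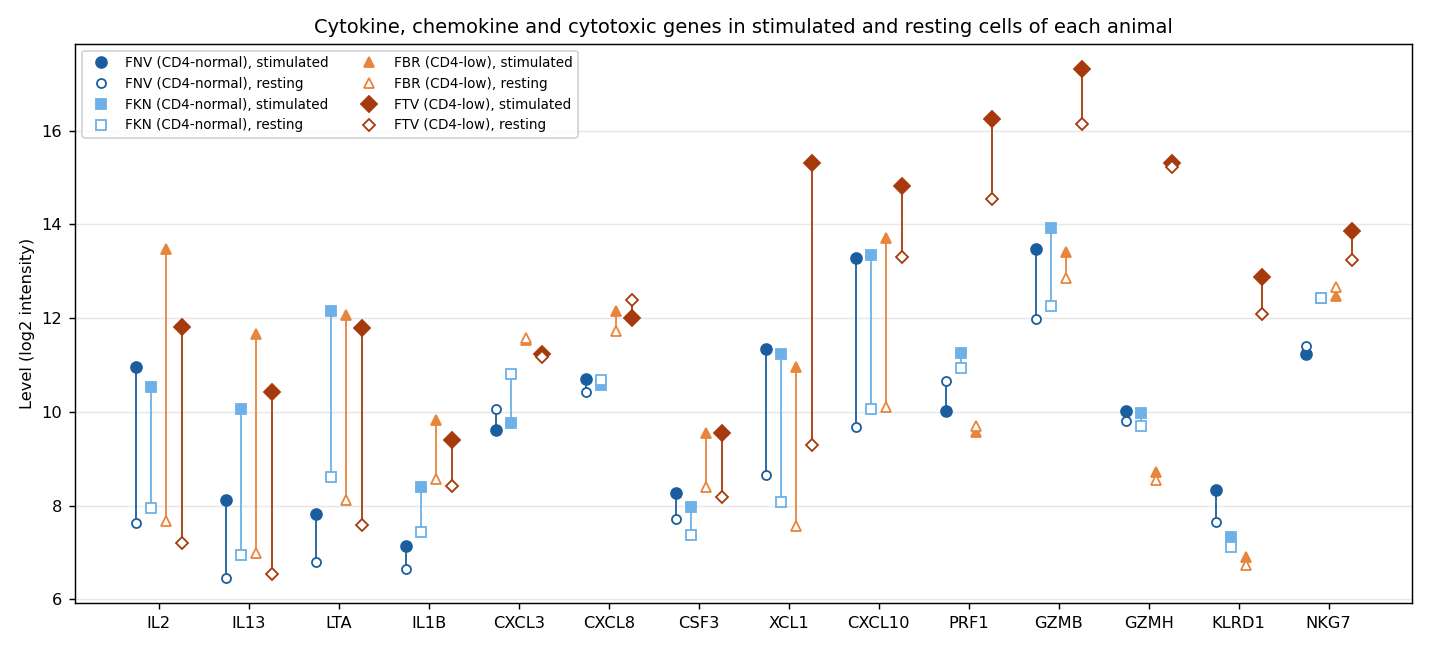
Levels (log2 intensity) of cytokine, chemokine and cytotoxic genes in stimulated and resting cells, one point per animal and condition; heights of different genes are not comparable. IL2 and IL13 are separated in stimulated cells only, CXCL8 in both conditions, and PRF1 and GZMH stand out in FTV alone.

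Interferon-stimulated genes were the list with the largest positive median. Of 41 tested, 16 (39%) were separated higher in the low animals and 1 lower, beside 18.3% and 17% of all features, with a median difference of 0.68, or 0.32 without FNV. EIF2AK2, which encodes the double-stranded RNA sensor PKR, had 6.95 and 8.46 in the normal animals and 8.75 and 9.23 in the low animals. OAS2, which makes an activator of RNA decay, had 7.41 and 8.74 against 9.18 and 9.45, and IFI35 10.01 and 10.98 against 11.12 and 11.996. In these genes the order was FNV, FKN, FBR and FTV from low to high, with FKN and FBR close. Members deviated from the mean of the 4 animals by a median of -0.585 in FNV, -0.1 in FKN, -0.035 in FBR and 0.621 in FTV. The list's difference in resting cells had a median of 1.17, beside -0.01 over all features, and the change between conditions was not tested for the list.

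Genes of the NF-kB pathway, through which the T cell receptor and CD28 turn on cytokine genes, had 9 of 20 members separated higher (45%) and none lower, beside 18.3% and 17% of all features. The median difference was 0.31, and without FNV also 0.31. In resting cells it was already 0.52, beside -0.01 over all features, and the change between conditions was not tested for the list. NFKBIZ, a nuclear co-regulator, had 9.66 and 10.07 in the normal animals and 10.94 and 10.57 in the low animals, and NFKB2, a subunit precursor, 8.60 and 10.03 against 10.49 and 10.38. REL, the subunit that T cells use for IL2, had 8.84 and 11.32 against 11.44 and 11.91, with FKN and FBR close and FNV far below. Activation markers had 7 of 23 separated higher (30.4%) and 1 lower (4.35%), with a median of 0.35, or 0.10 without FNV. IRF4, a factor that scales with receptor signal, had 9.23 and 11.15 against 11.64 and 11.97. On its other tested probe the difference was 0.08, without separation. Immediate early factors had 7 of 30 higher (23.3%) and 2 lower (6.67%), beside 18.3% and 17% of all features, and their median of 0.27 changed sign without FTV. IER3, an early survival gene, measured 9.70 and 10.92 against 11.47 and 12.18.

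IL7R, the receptor for the survival cytokine interleukin-7, had 9.56 and 11.71 in the normal animals and 12.07 and 13.001 in the low animals, a difference of 1.90 (SE 0.79), and 0.82 without FNV. BCL2L1, which encodes the survival protein BCL-xL, had 8.50 and 9.87 against 10.19 and 10.54. Of 18 apoptosis regulators, which include genes that promote and genes that block cell death, 7 (38.9%) were separated higher and 1 (5.56%) lower, beside 18.3% and 17% of all features, with a median of 0.23 that changed sign under 75th percentile centring. Of 23 glycolysis genes, 7 (30.4%, beside 18.3%) were separated higher and none lower, but the median of 0.29 was -0.03 without FNV. GAPDH, a glycolytic enzyme, had 12.72 and 15.60 against 15.30 and 14.98, with FNV alone low.

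Cell cycle genes leaned the other way. Of 25 proliferation genes, 13 (52%) were separated with the low animals lower and 2 (8%) higher, beside 17% and 18.3% of all features, with a median of -0.24, or -0.28 without FNV. CDCA7, a gene of dividing cells, had 10.02 and 10.17 in the normal animals and 9.32 and 8.73 in the low animals. TK1, which salvages thymidine, had 8.64 and 7.99 against 7.17 and 7.497, and TYMS, which makes thymidylate, 8.39 and 8.05 against 7.60 and 7.28. MCM3, a subunit of the replicative helicase, had 9.85 and 8.96 against 8.56 and 8.44. In each both low animals lay below both normal ones, and the same held at rest. At rest the list's median was -0.41, beside -0.01 over all features. The other tested TK1 probe had a difference of -0.27 and was not separated.

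Many cytotoxic genes were high in FTV alone and did not follow CD4 status. Of 22 tested, 10 were at least 2-fold higher in FTV than in each other animal. The next highest counts were 6 of 41 interferon-stimulated genes, 5 of 35 cytokines, 4 of 21 chemokines and 4 of 28 naive and memory genes. The share of all features that far up in FTV was not counted. PRF1, or perforin, which opens pores in target cells, had 10.02 and 11.26 in the normal animals and 9.58 and 16.24 in the low animals. GZMB, a granule protease that enters through them, had 13.47 and 13.92 against 13.41 and 17.30, and the related GZMH 10.02 and 9.97 against 8.71 and 15.31. KLRD1, or CD94, a receptor of NK cells and killer T cells, had 8.34 and 7.32 against 6.91 and 12.88, and XCL1, a chemokine for cross-presenting dendritic cells, 11.34 and 11.24 against 10.95 and 15.31. In all of these FBR, the other low animal, was the lowest of the 4. The list's median of 0.43 was -0.34 without FTV. In the list 3 members (13.6%) were separated higher and none lower, beside 18.3% and 17% of all features.

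The FTV levels were also high at rest. There PRF1 had 10.66 and 10.93 against 9.70 and 14.53, GZMB 11.97 and 12.26 against 12.86 and 16.13 and KLRD1 7.65 and 7.12 against 6.73 and 12.09. XCL1 was different, with 8.65 and 8.09 against 7.57 and 9.30 at rest, below its level at 4 hours in every animal. Of the 4 NK cell markers with a probe, KLRF1 was 8.91 in FTV and 6.38, 6.38 and 6.52 in FNV, FKN and FBR, where it was not well above background. NCR1 and KLRC3 were not well above background in any animal, and FCGR3 only in FTV. The summed intensity of the 4 was 817.7 in FTV and 355.6 to 384.5 in the others. Cells with CD16, which most blood NK cells carry, had been depleted with beads, and the part of NK cells in the FTV levels was not tested.

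**Figure D5:**
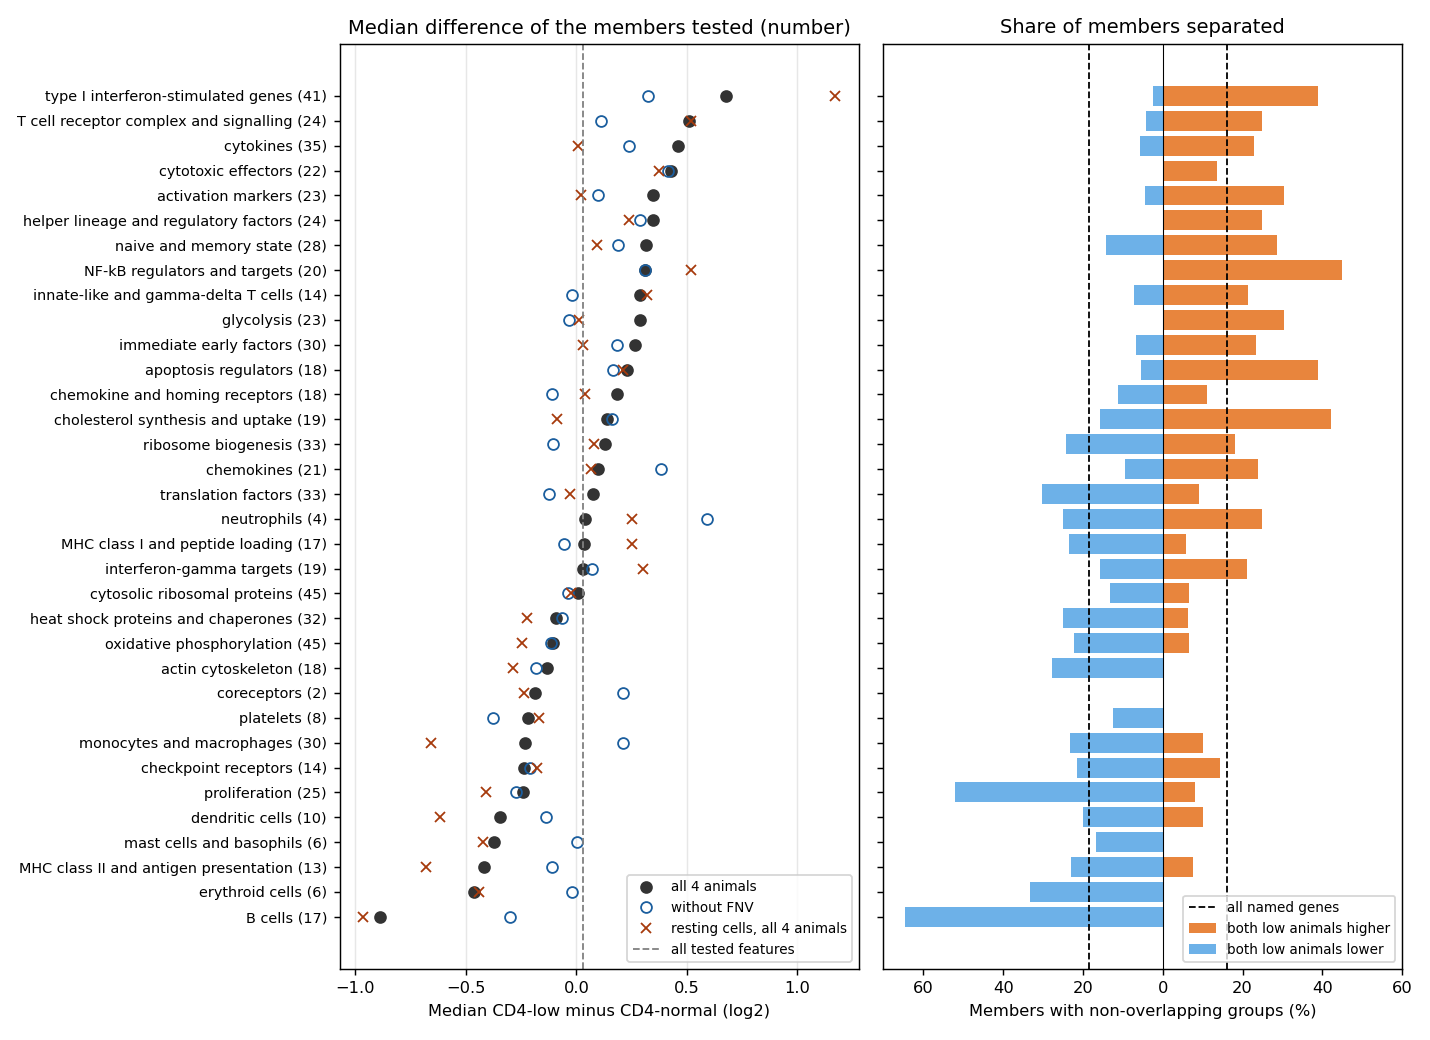
For each gene list, the median difference (log2, low minus normal) of its tested members, with and without FNV and in resting cells (crosses). The right panel gives the share of members with both low animals above or below both normal ones. Interferon-stimulated genes have the largest positive median (0.68) and B cell genes the largest negative one (-0.89), and both are nearer 0 without FNV.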

How the data were processed

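Each of the 16 arrays held 2 colours, and the 4 stimulated self-self arrays gave 1 level per animal. The authors deposited raw linear intensity of each spot and its local background, read with Agilent Feature Extraction (version 10.7.3.1 in the file headers). Mean signals were corrected here with normexp (offset 50), normalised by loess within arrays and by Aquantile between all 16, and averaged over spots and both channels (R 4.3.3, limma 3.58.1). A probe was tested where it was well above background in both channels in at least 2 animals: 1 probe per symbol, the brightest over all arrays, and every unnamed probe. Y-linked probes (24) were left out. Low and normal animals were compared with limma's lmFit and eBayes, 2 against 2, with Benjamini-Hochberg adjustment over all 20590 features, of which 8291 had a gene name. The call threshold was 0.05, and the test was checked on simulated data. Genes were named by rule: the 20 brightest, the 15 widest gaps per direction separated in each colour, separated list members at least 2-fold apart, the 4 largest differences of a list, and cell type markers. Members and the 34 lists were chosen with earlier results of these data known. Symbols came from the newer annotation edition where it gave one, otherwise from the description, the older edition or aliases, some of which were added after values had been seen. On 1 ratio array of FNV, title and a characteristic disagree about the stimulated channel, and the title was followed. Deviations of an animal's stimulated and resting levels from their group means correlated at 0.74 and 0.73, and both come from the same animal. Coordinates are on rheMac2, as in the files. The 20 alternative settings are in the closing section.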

Additional observations from a re-analysis of the deposited data

Results flagged for a closer look

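For 7 named genes, stimulated minus resting levels had a different sign in the 2 groups: both normal animals moved one way and both low animals the other. The test of that difference did not pass for any of them (limma adjusted p of 0.93 for RPS23, EEF1A1, RPLP1, CXCL1, RPL19 and INSIG1, and 0.931 for SDHA). INSIG1, which holds back sterol synthesis, had responses of -0.56 and -0.2 in FNV and FKN and 0.25 and 0.53 in FBR and FTV, a difference of 0.774 (SE 0.222). CXCL1, the neutrophil chemokine, had responses of -0.35 and -0.87 in FNV and FKN and 0.024 and 0.24 in FBR and FTV, a difference of 0.741 (SE 0.247). The ribosomal protein genes RPS23, RPLP1 and RPL19 had differences of 0.143 (SE 0.167), 0.195 (SE 0.181) and -0.198 (SE 0.17). EEF1A1 had a difference of 0.141 (SE 0.174) and SDHA, a subunit of mitochondrial complex II, one of 0.127 (SE 0.17).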

How the results depend on the processing

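All named genes with a wide gap, and the list genes separated at least 2-fold (68 in all), kept the sign of their difference in each of the 20 alternative settings in which they were tested. The 30 wide-gap genes also stayed separated, except under median centring, where 10 of 30 did. Where a setting left out an animal, or changed only the fit or the probes tested, both outcomes were fixed by the choice of separated genes. For the 30 genes, separation in each colour alone was part of that choice too. Of 34 list medians, 13 kept their sign in every setting. The number of features at an adjusted p under 0.05 was 0 in all settings but those without FKN (4904) and the 2 fits of all 8 self-self arrays (1 each, with animal as a replicate block and with no block). Leaving out 1 animal gave 0 to 4904 features at an adjusted p under 0.05 (4904 without FKN, which leaves FNV as the lone normal animal, assumed to vary like the low ones), 69 to 8731 at an unadjusted p (1012 without FNV, 180 without FBR, 69 without FTV), 6060 to 9651 separated higher, 5136 to 8387 lower, 205 to 2305 at least 2-fold higher and 115 to 1930 lower. For the change between stimulated and resting cells the count was 0 to 1087, the highest without FKN. At least 2-fold separations, higher and lower, numbered 348 and 515 as reported, 1707 and 1073 with the scanner's processed signals, 934 and 1191 with 75th percentile centring, 116 and 293 with Aquantile over the 4 arrays alone, 135 and 66 with scan batch as a term, 136 higher where all 4 arrays had to be well above background, and 183 lower with all stimulated channels or 170 with the ratio arrays only. Median centring left 2 and 26, with 499 and 395 separated and 2 at an unadjusted p under 0.05. Without a filter on dim probes 5827 and 6747 were separated and 1045 had an unadjusted p under 0.05. With all 4 arrays well above background these were 1559 separated higher and 214. With scan batch as a term 1012 had an unadjusted p under 0.05. The more features are tested or the fewer animals are left, the more such counts move by construction; otherwise the cause was not tested. Dim signal in FNV limits genes near background.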

Other observations

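Receptors that guide T cells to tissues overlapped between the groups in most cases, as did most of all features. Of 18 chemokine and homing receptors tested, 2 (11.1%) were separated higher in the low animals and 2 (11.1%) lower, beside 18.3% and 17% of all features. The median difference was 0.18, and -0.11 without FNV. CCR7, which directs T cells to lymph nodes, had 15.07 and 14.82 against 14.05 and 15.34, with the low animals at both ends. CXCR5, a receptor of follicular helper T cells, had 14.12 and 14.35 against 13.89 and 13.25, lower in both low animals. These genes were chosen after their values were seen.

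Probes without a gene symbol held the widest gap of all tested features. The probe A_01_P1698656, described as a Mamu-A1 allele of MHC class I, had 6.63 and 7.11 in the normal animals and 11.06 and 11.04 in the low animals, a difference of 4.18 (SE 0.29, limma adjusted p = 0.647), and was not well above background in FNV. Its levels at rest were 6.51 and 6.87 in the normal animals and 10.86 and 10.85 in the low animals. It was the only feature with an adjusted p under 0.05 in the fits of all 8 self-self arrays (0.0091 with animal as a replicate block and 0.0191 with no block). Another probe described as a Mamu-A1 allele, A_01_P1698671, had 7.502 and 8.43 in the normal animals and 10.17 and 11.45 in the low animals. The probe A_01_P001616, described as an MHC class II DQ alpha chain, went the other way, with 10.44 and 10.62 in the normal animals and 8.34 and 9.33 in the low animals. Whether these differences follow the alleles that the animals carry or the amount of transcript was not tested.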
